A study of Mus musculus with 12 samples.

Results

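The genes described here are 10 genes of the interleukin-1 (IL-1) family and the inflammasome, namely Il1a, Il1b, Il18, Il1rn, Il1r2, Nlrp3, Pycard, Casp1, Casp4 and Gsdmd. They were taken by symbol, and each matched 1 of 22294 rows of the expression table. Messenger RNA was sequenced from F4/80-positive cells, the macrophage fraction, pulled with magnetic beads from mouse endometrium after trypsin and collagenase digestion. The 12 libraries formed 4 groups of 3. The primed MSC group had a model of intrauterine adhesion (IUA) and received human umbilical cord mesenchymal stromal cells (MSC) that had been primed with inflammatory cytokines. The control MSC group had the same model and received control MSC of the same kind, and the IUA group is labelled with the model alone. The Sham group had a sham operation and carries the treatment label untreated. The library names of the IUA group contain the word Matrigel, and the labels do not say whether the other groups received it, so its effect and the group effect cannot be told apart. Mouse strain, age, the priming cytokines, the time of sampling and any pooling of animals are not given in the sources used here.

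IL-1 alpha and IL-1 beta are inflammatory cytokines that signal through the same receptor, the product of Il1r1 with its partner Il1rap. The product of Il1rn, the IL-1 receptor antagonist, binds that receptor without activating it, and Il1r2 encodes a decoy receptor that captures IL-1 without signalling. IL-1 beta and IL-18 are made as inactive precursors. An inflammasome, in which a sensor such as NLRP3 recruits the adaptor ASC (Pycard) and caspase-1 (Casp1), cleaves them and gasdermin D (Gsdmd), whose fragment forms pores that release the cytokines. Casp4 encodes mouse caspase-11, which responds to cytosolic lipopolysaccharide and also cleaves gasdermin D. Because cleavage controls release, transcript levels do not measure active cytokine.

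The upstream sequences of 4 of these genes are shown because Il1a, Il1b and Il1rn rose in the adhesion model while Casp4 did not. Each is the 250 bases before a RefSeq transcription start on GRCm38.p6, written 5' to 3' along the gene, with motif matches in capitals.
Il1a (chr2:129309973-129310222, minus strand): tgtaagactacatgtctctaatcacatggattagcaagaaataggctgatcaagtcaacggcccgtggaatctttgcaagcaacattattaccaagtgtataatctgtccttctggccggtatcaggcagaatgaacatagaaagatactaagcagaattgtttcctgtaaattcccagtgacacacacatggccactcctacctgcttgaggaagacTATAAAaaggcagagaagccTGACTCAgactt
Il1b (chr2:129371140-129371389, minus strand): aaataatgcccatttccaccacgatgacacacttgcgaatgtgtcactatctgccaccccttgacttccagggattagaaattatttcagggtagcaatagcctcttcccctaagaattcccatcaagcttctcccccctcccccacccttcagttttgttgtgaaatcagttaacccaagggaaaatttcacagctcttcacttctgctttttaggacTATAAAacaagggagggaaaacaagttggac
Il1rn (chr2:24336610-24336859, plus strand): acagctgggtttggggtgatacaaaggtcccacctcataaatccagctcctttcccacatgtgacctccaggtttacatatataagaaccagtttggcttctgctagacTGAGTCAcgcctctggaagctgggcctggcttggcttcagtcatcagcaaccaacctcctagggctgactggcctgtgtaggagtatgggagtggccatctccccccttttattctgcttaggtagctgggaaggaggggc
Casp4 (chr9:5308599-5308848, plus strand): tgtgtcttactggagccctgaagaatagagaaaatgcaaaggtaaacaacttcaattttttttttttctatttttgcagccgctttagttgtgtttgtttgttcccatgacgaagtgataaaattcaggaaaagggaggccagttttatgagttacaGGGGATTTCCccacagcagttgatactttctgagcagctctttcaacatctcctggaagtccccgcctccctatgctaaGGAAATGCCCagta
Motifs were searched on both strands. The core promoter motif was TATAAA, and the motif of the AP-1 transcription factors, which respond to stress and cytokine signals, was TGANTCA. The kB motif, bound by NF-kB, was GGG followed, after a gap of 2 bases of any kind, by TTTCC. The motif of interferon regulatory factors (IRF) was GAAA repeated after a like gap, and that of the C/EBP factors was TTGCNNAA. None of these motifs overlapped another in the windows shown. The capitals in Il1a are TATAAA at -32 and TGACTCA at -12 from the start, and in Il1b TATAAA at -31. In Il1rn they are TGAGTCA at -141 of the most upstream of its 3 listed starts, and in Casp4 they are kB matches at -93 on the plus strand and at -14 on the minus strand. Another listed start of Il1rn, whose window is not shown, also has a kB match, at -51, so the kB motif was found in 2 of the 9 genes searched, 1 that rose and 1 that did not. Of these 9 genes TATAAA was found in 3 (Il1a, Il1b and Il18), TGANTCA in 2 (Il1a and Il1rn) and TTGCNNAA in 1 (Pycard). The Il18 match lay at -175 on the minus strand, unlike the matches near the start in Il1a and Il1b. Over all 32851 promoter windows TATAAA was found in 12.4 percent, TGANTCA in 6.75, TTGCNNAA in 9.56 and the kB motif in 1.41. A gene was counted if any of its windows matched, whereas the percentages count single windows, so the 2 measures are not alike. Of the 10 genes 9 had a window in the table, and none of them held the IRF letters, which 2.98 percent of all windows did. These matches describe letters and do not show binding.

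The sorted fraction was checked first. Adgre1, which encodes F4/80, lay between 983 and 1382 FPKM (sequenced fragments relative to transcript length and library size) in primed MSC, 837 and 1039 in control MSC, 401 and 476 in IUA, and 205 and 256 in Sham. The epithelial keratin gene Krt18 lay between 574 and 870 FPKM in primed MSC, 621 and 1543 in control MSC, 652 and 2413 in IUA, and 3782 and 6230 in Sham, so every Sham library held more epithelial RNA than any other library. In bulk libraries a change in the share of a cell type and a change of RNA per cell cannot be told apart. FPKM summed to between 505460 and 563751 per library, and the sequencing depth is unknown. The labels do not say that libraries came from separate animals, so the tests gauge differences against the variation among these libraries, which may be technical.

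**Figure D1:**
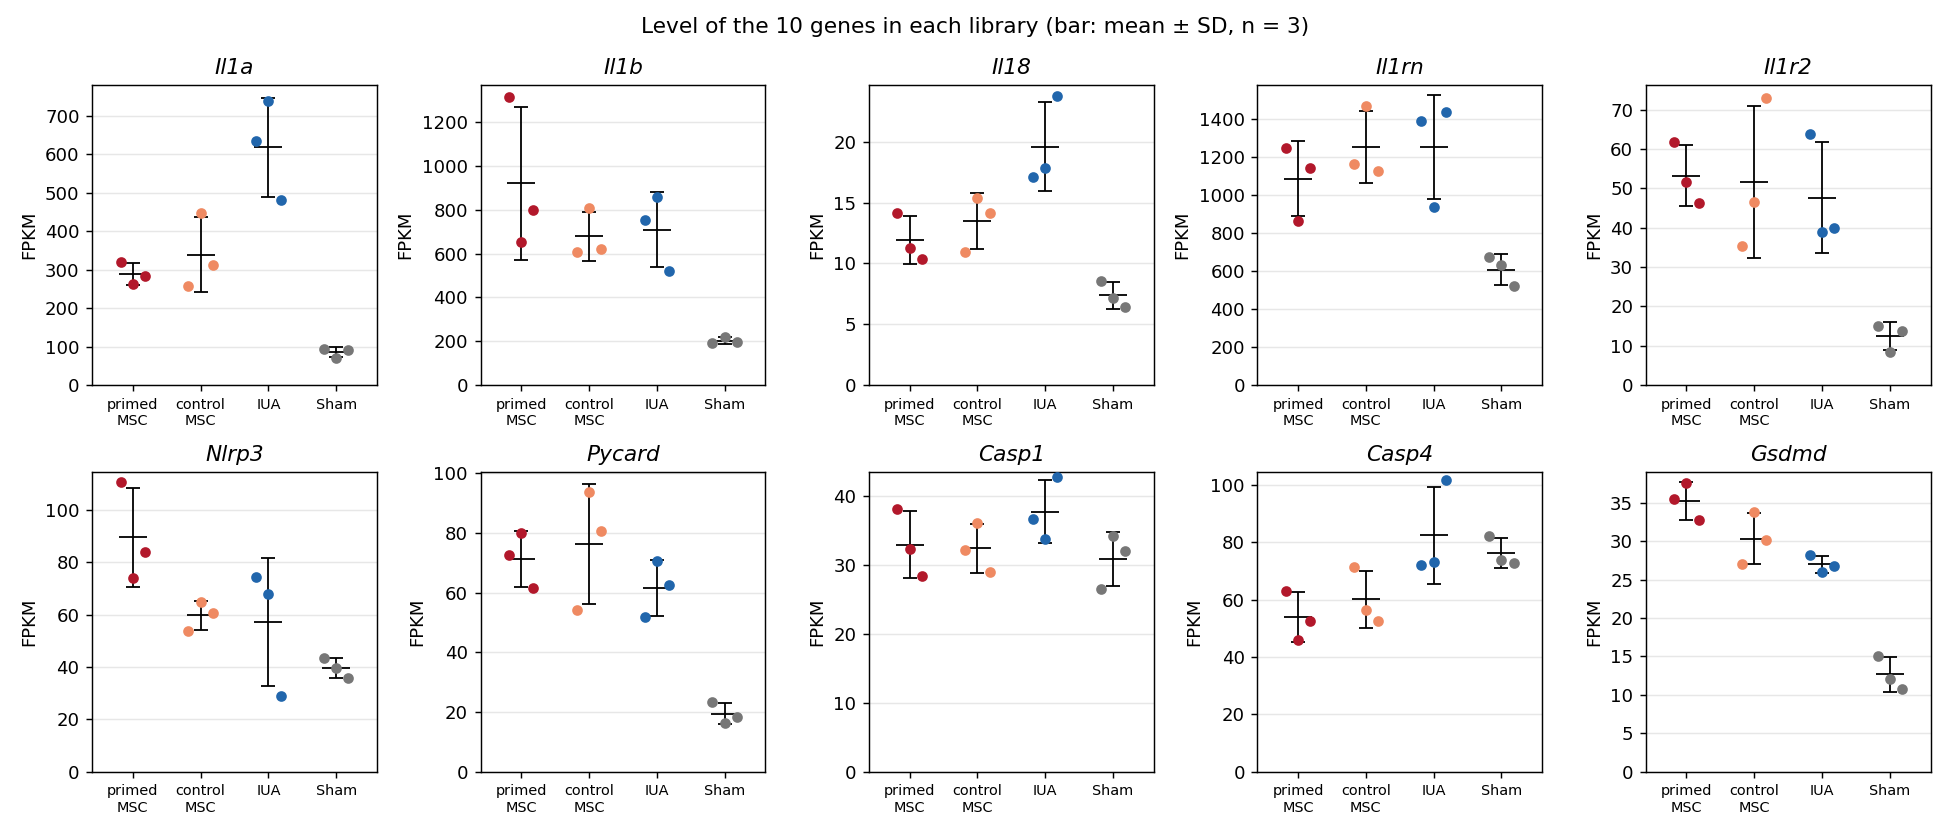
FPKM of the 10 genes in each library (y axis, linear, starting at 0) for the 4 groups (x axis), with the mean and SD of 3 libraries. Il1a was highest in the IUA libraries, Il1b, Il1rn, Il1r2, Pycard and Gsdmd stayed above Sham in all 3 adhesion groups, and Casp1 varied little.

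The agonist ligands were all higher in the adhesion model, and Il1a and Il18 fell in primed MSC against IUA. Il1a (chromosome 2, 129299610 to 129309972, mm10) was at 319, 262 and 283 FPKM in primed MSC, 257, 448 and 311 in control MSC, 633, 737 and 481 in IUA, and 94.6, 71.5 and 90.0 in Sham. The IUA libraries lay above all 9 others, and the Sham libraries below all others. In IUA against Sham Il1a rose by 2.83 ± 0.20 on the log2 scale (SE, limma adjusted p = 2.50e-06), and it fell in primed MSC against IUA (-1.08 ± 0.20, adjusted p = 0.00499). In control MSC against IUA the change of -0.88 ± 0.20 did not pass (adjusted p = 0.0589), although the groups did not overlap. Both treated groups kept Il1a above Sham, by 1.75 ± 0.20 in primed MSC and 1.95 ± 0.20 in control MSC.

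Il1b (chromosome 2, 129364570 to 129371139) rose with the model, and no fall with treatment was detected. It was at 1313, 651 and 798 FPKM in primed MSC, 609, 809 and 619 in control MSC, 754, 856 and 519 in IUA, and 192, 220.03 and 195 in Sham. The 3 adhesion groups overlapped one another and lay wholly above Sham. Il1b rose in IUA against Sham (log2 change 1.78 ± 0.24, adjusted p = 1.77e-04). Against IUA, the log2 change was 0.34 in primed MSC with a 95 percent interval of -0.18 to 0.86, and -0.04 in control MSC with an interval of -0.57 to 0.48. Primed MSC replicate 1 held the highest Il1b level of all libraries, and without it the log2 change of primed MSC against IUA was 0.05. The antisense gene Il1bos overlaps Il1b, and the library protocol describes no step that keeps strand, so reads of the pair cannot be told apart. By position, Gm14023 overlaps Il1a, Gm16894 and Gm37347 overlap Il1r2, and Gm45205 overlaps Pycard. The same limit holds for those genes where bases are shared.

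Il18 (chromosome 9, 50554827 to 50581840) was far lower than the IL-1 genes per length of transcript. Its level was 14.2, 11.2 and 10.3 FPKM in primed MSC, 10.9, 15.4 and 14.1 in control MSC, 17.1, 17.9 and 23.8 in IUA, and 8.56, 7.14 and 6.41 in Sham. All IUA libraries lay above all treated ones, which lay above all Sham libraries. Il18 rose in IUA against Sham (log2 change 1.29 ± 0.17, adjusted p = 1.73e-04) and fell in primed MSC against IUA (-0.67 ± 0.17, adjusted p = 0.0206). The change of -0.51 ± 0.17 in control MSC against IUA did not pass (adjusted p = 0.161). The genes Bco2 and Tex12 overlap the Il18 locus, so reads from them cannot be told apart from its own where they share bases.

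The natural inhibitors rose in the model, and no change of them with treatment was detected. Il1rn (chromosome 2, 24336853 to 24351494) was the most abundant of the 10 genes in all but 1 library, at 1248, 865 and 1144 FPKM in primed MSC, 1162, 1469 and 1128 in control MSC, 1387, 936 and 1436 in IUA, and 673, 631 and 519.6 in Sham. The exception was primed MSC replicate 1, where Il1b stood higher. In Sham Il1rn already ranked between 86 and 121 of all genes by FPKM, and in the adhesion groups between 42 and 72. Il1rn rose in IUA against Sham (log2 change 1.03 ± 0.19, adjusted p = 8.82e-04). Its change against IUA was -0.20 ± 0.19 in primed MSC and 0.01 ± 0.19 in control MSC. The table gives 1 value for the gene, so secreted and intracellular forms of the antagonist are not separated.

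Il1r2 (chromosome 1, 40074079 to 40125231) was at 61.7, 51.7 and 46.3 FPKM in primed MSC, 35.4, 46.4 and 73.1 in control MSC, 63.9, 39.0 and 40.0 in IUA, and 15.1, 8.48 and 13.8 in Sham. Every adhesion library lay above every Sham library, and the adhesion groups overlapped. The decoy receptor gene rose in IUA against Sham (log2 change 1.85 ± 0.28, adjusted p = 2.84e-04), with changes of 0.19 ± 0.28 in primed MSC and 0.09 ± 0.28 in control MSC against IUA.

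The balance of these transcripts within a library is given as a ratio of FPKM, with no test. The ratio of Il1rn to Il1b was 0.95, 1.33 and 1.43 in primed MSC, 1.91, 1.82 and 1.82 in control MSC, 1.84, 1.09 and 2.77 in IUA, and 3.50, 2.87 and 2.67 in Sham. Every primed MSC library lay below every control MSC library, whereas the IUA libraries spanned most of the range and IUA replicate 3 overlapped Sham. The ratio of Il1rn to Il1a averaged 3.75 ± 0.39 in primed MSC, 3.81 ± 0.64 in control MSC, 2.15 ± 0.86 in IUA and 7.24 ± 1.53 in Sham (SD, n = 3), with IUA lowest and Sham highest and no overlap of either with the treated groups. The ratio of Il1b to Il1a, chosen after its values were seen, was 2.49 to 4.12 in primed MSC, 1.81 to 2.37 in control MSC, 1.08 to 1.19 in IUA and 2.03 to 3.08 in Sham. The agonist pair was thus near equal in each IUA library alone. The ratio of Il1r2 to Il1b overlapped among all 4 groups, from 0.0385 to 0.118 over the 12 libraries.

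**Figure D2:**
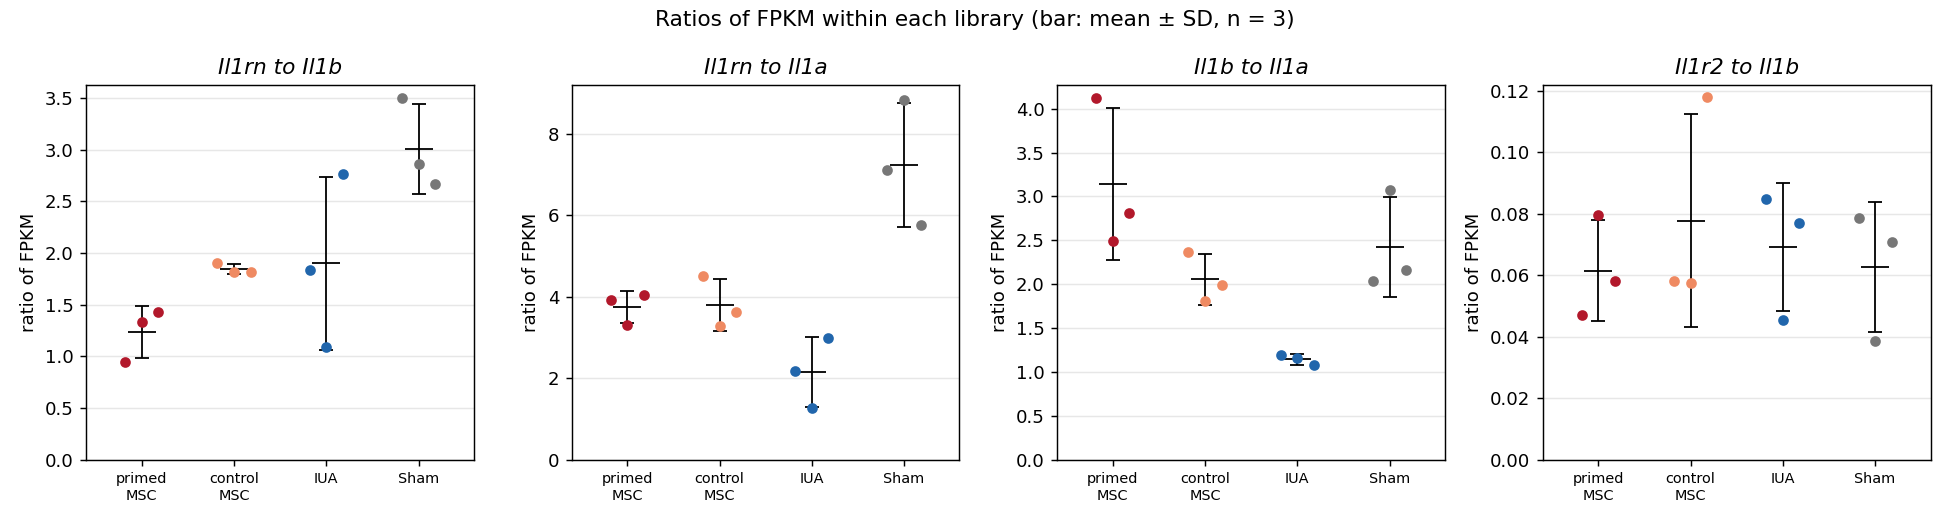
Ratios of FPKM between 2 genes within each library (y axis, starting at 0) by group (x axis), with the mean and SD of 3 libraries. The ratio of Il1b to Il1a was lowest in IUA, at 1.08 to 1.19, and that of Il1rn to Il1a was highest in Sham, averaging 7.24.

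The inflammasome parts did not move as a block. The sensor gene Nlrp3 (chromosome 11, 59541568 to 59566956) was at 111, 74.1 and 83.9 FPKM in primed MSC, 53.8, 65.0 and 60.6 in control MSC, 74.6, 67.8 and 29.1 in IUA, and 43.3, 39.5 and 35.9 in Sham. IUA replicate 3 lay below every other library, so IUA overlapped every group but the primed and control libraries lay wholly above Sham. Nlrp3 rose in primed MSC against Sham (log2 change 1.14 ± 0.28, adjusted p = 0.00382) and was not called in IUA against Sham (0.41 ± 0.28, adjusted p = 0.222). With the epithelial covariate the change in primed MSC against Sham was 0.92 ± 0.51 and did not pass (adjusted p = 0.260). Without IUA replicate 3 the change in IUA against Sham was 0.83 and passed (adjusted p = 0.00197). In primed MSC against IUA the change of 0.73 ± 0.28 did not pass (adjusted p = 0.0855). It was 0.31 without IUA replicate 3 (adjusted p = 0.232) and 0.97 without IUA replicate 1, where it passed (adjusted p = 0.0308).

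The adaptor gene Pycard (chromosome 7, 127989708 to 127993867) rose in every adhesion group. It was at 72.5, 79.9 and 61.4 FPKM in primed MSC, 54.3, 93.8 and 80.8 in control MSC, 52.0, 70.6 and 62.5 in IUA, and 23.3, 16.4 and 18.4 in Sham. Every adhesion library lay above every Sham library, and the adhesion groups overlapped. The log2 change was 1.62 ± 0.20 in IUA against Sham (adjusted p = 1.09e-04), 1.83 ± 0.20 in primed MSC and 1.90 ± 0.20 in control MSC against Sham.

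As deposited, the caspase genes stood apart from the ligands. Casp1 (chromosome 9, 5298517 to 5307265) ranged from 26.5 to 42.7 FPKM over all 12 libraries. On these values it was the only 1 of the 10 genes not called by the moderated F test over the 4 groups (adjusted p = 0.316). Under median-ratio scaling and quantile normalization that test called all 10 genes, and Casp1 rose in IUA against Sham (0.58 and 0.54). Casp4 (chromosome 9, 5308828 to 5336783) was at 63.1, 45.9 and 52.5 FPKM in primed MSC, 71.5, 56.4 and 52.7 in control MSC, 72.2, 73.2 and 101.8 in IUA, and 82.3, 73.7 and 73.0 in Sham. All treated libraries lay below all IUA and Sham libraries. Casp4 fell in primed MSC against IUA (log2 change -0.60 ± 0.16, adjusted p = 0.0241) and against Sham (-0.51 ± 0.16, adjusted p = 0.0173). The call against Sham was lost under median-ratio scaling (-0.20, adjusted p = 0.307), quantile normalization (-0.34, adjusted p = 0.0586) and the epithelial covariate (-0.17, adjusted p = 0.717). It was also lost without primed MSC replicate 2 (adjusted p = 0.0766) or Sham replicate 1 (adjusted p = 0.0557). Its change of 0.09 ± 0.16 in IUA against Sham did not pass and was -0.11 after a correction for base composition.

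The pore gene Gsdmd (chromosome 15, 75862327 to 75867408) was at 35.5, 37.5 and 32.7 FPKM in primed MSC, 27.1, 33.8 and 30.1 in control MSC, 28.1, 26.0 and 26.8 in IUA, and 15.1, 12.1 and 10.8 in Sham. Sham lay below all other libraries, and primed MSC lay above IUA without overlap. Gsdmd rose in IUA against Sham (log2 change 1.05 ± 0.13, adjusted p = 1.08e-04) and in primed MSC against Sham (1.42 ± 0.13, adjusted p = 7.82e-06). Against IUA, the primed MSC change of 0.37 ± 0.13 did not pass (adjusted p = 0.0598). It passed as higher in 4 of 23 alternative settings, among them TPM scaling (0.43, adjusted p = 0.0297) and the epithelial covariate (0.33, adjusted p = 0.0454). After G and C correction the change was 0.24 and did not pass (adjusted p = 0.206).

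Calls were then counted by comparison beside those over all genes. In IUA against Sham 7 of the 10 genes rose and none fell (Il1a, Il1r2, Il1b, Pycard, Il18, Gsdmd and Il1rn), where 56.2 percent of all 11604 tested genes were called, 11.1 percent rose and 45 percent fell. The share called, in either direction, is near that of all genes. The split of all genes depended on scaling, with 1291 higher and 5226 lower as deposited, 2236 and 3138 under median-ratio scaling, and 2594 and 2645 under quantile normalization. The median log2 change of the 10 was 1.17, beside -0.35 for all tested genes. Under median-ratio scaling the median of all genes was -0.09, these 7 genes again rose, and Casp1 passed as well (0.58, adjusted p = 0.0102), as it did under quantile normalization (0.54, adjusted p = 0.0105). Groups did not overlap for those 7 genes, as for 59.6 percent of all genes.

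Of the 10 genes 3 fell in primed MSC against IUA (Il1a, Il18 and Casp4) and none rose, where 19.1 percent of all genes were called, 6.97 percent fell and 12.2 percent rose. The share called is not far from that of all genes. In the same comparison 6 of 12 macrophage markers rose (Adgre1 by 1.43), and of 10 monocyte markers 3 fell (Chil3, Vcan and F10) and 1 rose (Thbs1). Their part in these falls was not tested. These 3 genes of the set and Gsdmd did not overlap between the groups, as for 37.6 percent of all genes. In control MSC against IUA limma called none of the 10, with 0.853 percent of all genes called (0.724 percent higher, 0.129 percent lower), and 3 of the 10 had an unadjusted p under 0.05. These were Il1a, Casp4 and Il18, with negative log2 changes of -0.88, -0.44 and -0.51, and their groups did not overlap, as for 22.1 percent of all genes. Over all genes 84 were higher and 15 lower, against 30 and 12 under median-ratio scaling. Both comparisons share the 3 IUA libraries, so their values are not independent of each other.

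The direct comparison of primed with control MSC called none of the 10, and none had an unadjusted p under 0.05, while 0.112 percent of all genes were called, 0.0776 percent higher and 0.0345 percent lower. These were 9 genes higher and 4 lower, against 12 and 3 under quantile normalization. The 95 percent intervals of the log2 difference were -0.64 to 0.24 for Il1a, -0.54 to 0.21 for Il18, -0.51 to 0.19 for Casp4, -0.14 to 0.91 for Il1b and -0.05 to 1.16 for Nlrp3. Differences of up to about 1 log2 unit for Il1b and Nlrp3 are therefore within these data. Nlrp3 was higher in each primed library than in each control MSC library (adjusted p = 0.429), a separation found for 25.2 percent of all genes.

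Against Sham, 8 of the 10 genes rose and Casp4 fell in primed MSC, where 59.5 percent of all genes were called, 14.5 percent rose and 45 percent fell, and groups did not overlap for 68.1 percent. Under median-ratio scaling and quantile normalization 8 of the 10 rose and none fell. Over all genes 1684 rose and 5219 fell as deposited, 2730 and 3430 under median-ratio scaling, and 3140 and 3063 under quantile normalization. In control MSC 7 rose and none fell, where 56.8 percent of all genes were called, 14.1 percent rose and 42.7 percent fell. Casp4 changed by -0.35 ± 0.16 in control MSC against Sham and did not pass (limma adjusted p = 0.0849). It passed as lower in 5 of 23 alternative settings, among them TPM scaling (adjusted p = 0.0288) and G and C correction (adjusted p = 0.0263). Here 1632 genes rose and 4960 fell as deposited, 2524 and 3374 under median-ratio scaling, and 2971 and 2845 under quantile normalization. Nlrp3 also rose in control MSC against Sham under both (adjusted p 0.0282 and 0.0340). These comparisons share the 3 Sham libraries. The moderated F test called 9 of the 10, against 67 percent of all genes. It called all 10 under median-ratio scaling and under quantile normalization, with 6934 and 6897 of all genes called.

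**Figure D3:**
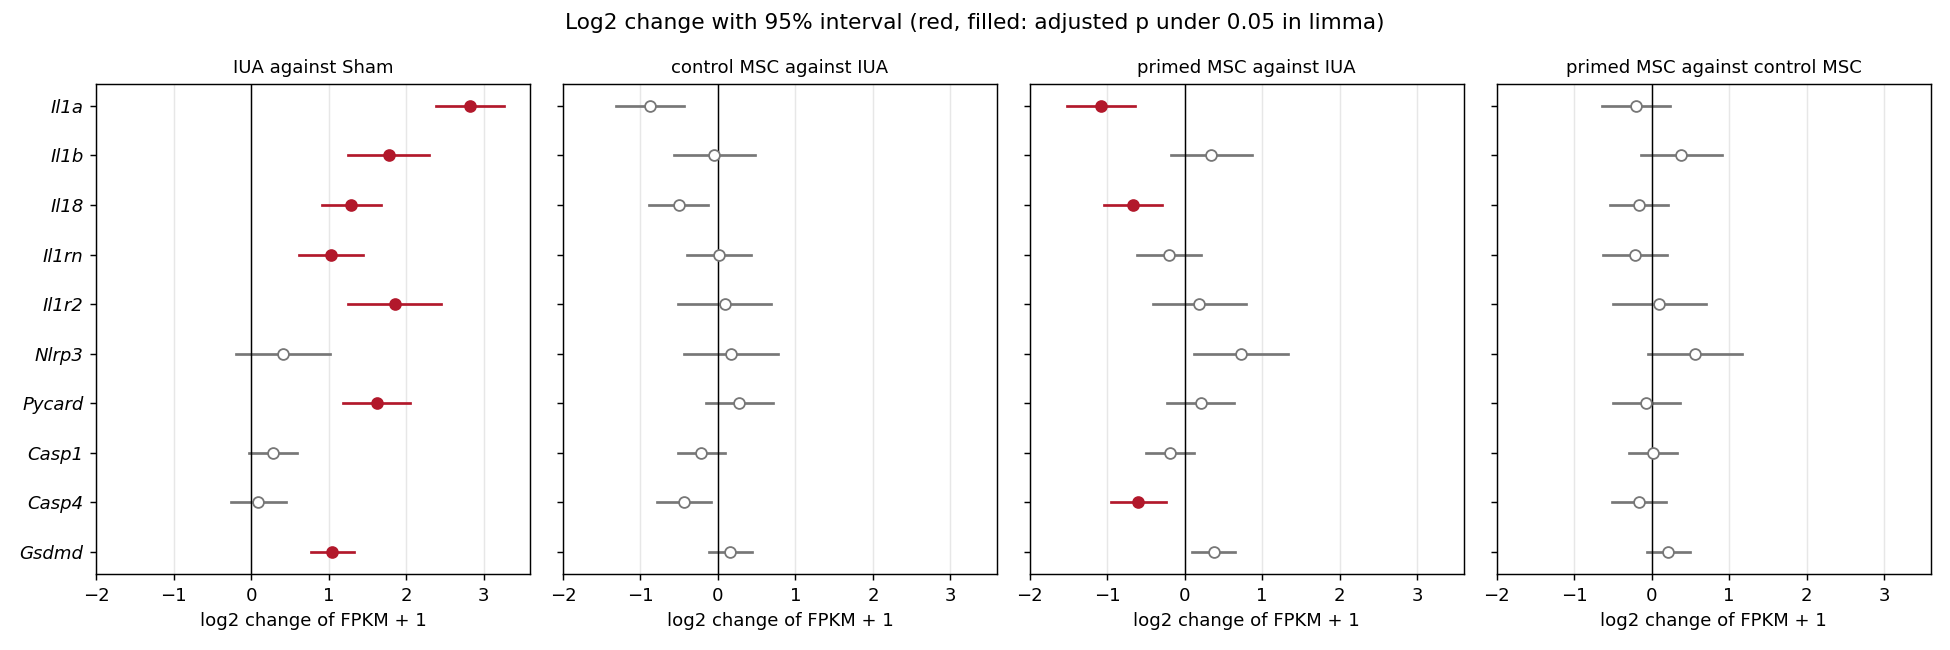
Log2 change of FPKM + 1 (x axis) of each gene (rows) in 4 comparisons, with the 95 percent interval from limma; red filled points passed at an adjusted p under 0.05. In IUA against Sham 7 genes rose, in primed MSC against IUA Il1a, Il18 and Casp4 fell, and the other 2 panels hold no call.

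Base composition moved with the falls in primed MSC. The transcripts of Il1a, Il18 and Casp4 held 41.3, 42.2 and 41.9 percent G and C, which placed them at or below percentile 7.79 of all tested genes. The Spearman correlation, across genes, of a library's centred level with G and C content was 0.137 to 0.216 in primed MSC, -0.0925 to 0.0885 in control MSC, -0.483 to -0.148 in IUA and 0.0687 to 0.0942 in Sham. It was most negative in IUA replicate 3. After a correction for this trend Il1a still fell in primed MSC against IUA (log2 change -0.87 ± 0.22, adjusted p = 0.0216), whereas Il18 (-0.48 ± 0.15, adjusted p = 0.0518) and Casp4 (-0.40 ± 0.15, adjusted p = 0.0804) did not pass. The calls of Il18 and Casp4 were also lost without IUA replicate 3, and without primed MSC replicate 2 or 3 (adjusted p 0.0655 to 0.0915). That of Casp4 was lost as well when the compared groups were fitted alone (adjusted p = 0.0585). Casp1, at 41.1 percent G and C, changed by -0.19 ± 0.14 in primed MSC against IUA and was not called. The 7 rises in IUA against Sham kept their calls under the correction.

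Markers of other cells moved with the rise in the adhesion groups. Of 13 tested epithelial markers 13 fell in IUA against Sham, where 45 percent of all genes fell. The list of 14 summed to 1555 to 2429 FPKM in primed MSC, 1547 to 3886 in control MSC, 1594 to 5332 in IUA and 8021 to 13961 in Sham. With the mean of this list as a covariate, 4 of the 10 genes still rose in IUA against Sham (Il1a, Il1b, Pycard and Gsdmd), while Il18 (adjusted p = 0.0520), Il1rn (adjusted p = 0.135) and Il1r2 (adjusted p = 0.101) did not pass. In the same comparison 10 of 12 macrophage markers rose and 1 fell, and 8 of 10 monocyte markers rose, among them Ccr2 (1.00 ± 0.20) and Ly6c2 (2.94 ± 0.64), while Csf1r did not pass (0.37 ± 0.23). Over all genes 11.1 percent rose. The part of these markers in the rises was not tested.

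Neutrophils, which also express Il1b and Il1r2, were traced by 13 markers. The list moved both ways with treatment. It summed to 1511, 383 and 913 FPKM in primed MSC, 1186, 834 and 733 in control MSC, 487, 388 and 357 in IUA, and 61.8, 105 and 96.0 in Sham. Of 10 tested markers 7 rose in IUA against Sham, where 11.1 percent of all genes rose. Ltf, also made by uterine epithelium, contributed much of this sum, at 1167 of 1511 FPKM in primed MSC replicate 1. The defining marker Ly6g was at 0 in all Sham libraries and at most 0.69 FPKM elsewhere. Csf3r and Lcn2 rose in primed MSC against IUA (1.17 and 1.51), while the granule genes Ngp and Camp fell (-1.91 and -1.38), and the other 6 tested markers were not called. Ngp was at 1.34, 0.36 and 6.45 FPKM in primed MSC, 1.43, 0.53 and 3.15 in control MSC, 16.1, 5.61 and 10.1 in IUA, and 0, 0.05 and 0.81 in Sham. S100a8, also found in monocytes, was at 71.8, 29.1 and 28.6 FPKM in primed MSC, 36.2, 71.6 and 77.2 in control MSC, 54.7, 15.3 and 22.6 in IUA, and 1.05, 0.82 and 3.78 in Sham. Their part in the levels of Il1b and Il1r2 was not tested. Of 16 genes induced by tissue dissociation, 10 fell, 1 rose and 5 were not called in IUA against Sham, where 45 percent of all genes fell. Of these 16 genes 5 rose and none fell in primed MSC against IUA, where 12.2 percent of all genes rose and 6.97 percent fell. The part of these 16 genes in the results was not tested.

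The wider pathway comprised 55 further genes in 8 lists by role, of which 47 passed the filter on low values. In IUA against Sham 17 rose, 6 fell and 24 did not pass, with a median log2 change of 0.23, beside 11.1 percent higher, 45 percent lower and a median of -0.35 over all genes. In control MSC against IUA 1 rose, and in primed MSC against IUA 4 rose and 3 fell, near the shares of all genes (12.2 percent higher, 6.97 percent lower). None was called between primed and control MSC by limma, with 4 at an unadjusted p under 0.05.

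Among the other ligands Il36g and Il36a, which encode IL-36 cytokines, rose with the model, while Il36b reached at most 0.51 FPKM and was not tested. Il36g, listed in the table under its older name Il1f9, was at 13.7, 7.82 and 9.42 FPKM in primed MSC, 10.9, 18.5 and 21.6 in control MSC, 17.3, 3.35 and 6.62 in IUA, and 0.18, 0.57 and 0.96 in Sham (IUA against Sham, log2 change 2.46 ± 0.43, adjusted p = 6.79e-04). Il36a (older name Il1f6) was at 112, 30.6 and 63.3 FPKM in primed MSC, 74.0, 48.5 and 62.9 in control MSC, 37.2, 45.2 and 117 in IUA, and 17.2, 25.2 and 16.9 in Sham, and also rose in IUA against Sham (1.53 ± 0.45, adjusted p = 0.0124). Both varied widely among adhesion libraries but lay above every Sham library. Il33, an alarmin of tissue cells, fell in primed MSC against IUA (-0.85 ± 0.24, adjusted p = 0.0297). Of 9 tested stromal markers 2 fell and 7 were not called in that comparison, where 6.97 percent of all genes fell. The part of stromal cells in the level of Il33 was not tested.

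Of the receptors, 1 of 6 rose in IUA against Sham, the shared subunit gene Il1rap (0.59 ± 0.13, adjusted p = 0.00196). That is near the share of all genes, of which 11.1 percent rose. The IL-18 receptor gene Il18r1 and the IL-33 receptor gene Il1rl1 were near or below 3 FPKM in most libraries, with changes of -0.20 ± 0.22 and 0.23 ± 0.36 that did not pass. The remaining inhibitors went opposite ways in the model. Il18bp, whose secreted product neutralises IL-18, rose in IUA against Sham (1.40 ± 0.15, adjusted p = 5.56e-05), at 92.2, 60.4 and 73.5 FPKM in primed MSC, 44.5, 43.9 and 47.8 in control MSC, 54.4, 50.7 and 63.2 in IUA, and 19.6, 18.3 and 24.4 in Sham. Sigirr, an inhibitory receptor of the family that epithelium also expresses, fell (-1.23 ± 0.20, adjusted p = 4.12e-04).

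Other inflammasome sensors rose where Nlrp3 did not pass. Of 6 further sensor genes tested, 4 rose in IUA against Sham and none fell, where 11.1 percent of all genes rose and 45 percent fell. Mefv, which encodes the sensor pyrin, rose by 1.95 ± 0.16 (adjusted p = 7.76e-06). Naip2, a receptor for bacterial rod proteins, rose by 1.41 ± 0.14 (adjusted p = 3.09e-05) and its partner Nlrc4 by 0.48 ± 0.19 (adjusted p = 0.0468). The change of Nlrc4 was near the 0.41 of Nlrp3, which passed without IUA replicate 3. Levels in Sham were low, at 1.49 to 1.73 FPKM for Naip2 and 1.32 to 2.53 for Nlrc4. The Naip genes are close copies, so reads may have been split among them. Mefv was at 35.3, 25.4 and 26.3 FPKM in primed MSC, 24.2, 28.8 and 25.5 in control MSC, 33.9, 26.3 and 25.6 in IUA, and 7.96, 6.30 and 5.73 in Sham.

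Beside the caspases, Ripk3, a kinase of necroptosis, rose in IUA against Sham (0.62 ± 0.16, adjusted p = 0.00661) as did Casp8 (0.38 ± 0.13, adjusted p = 0.0277). Casp12, a neighbour of Casp1 and Casp4 on chromosome 9, fell in primed MSC against IUA (-0.76 ± 0.21, adjusted p = 0.0250). Ninj1, which ruptures the membrane after pore formation, rose in IUA against Sham (0.79 ± 0.12, adjusted p = 3.80e-04), and Gsdme was at 0.03 ± 0.12. Among activation regulators the ATP-gated channel gene P2rx4 (0.81 ± 0.09) and the nucleic acid sensor gene Zbp1 (1.13 ± 0.21) rose and Txnip, a thioredoxin-binding protein that can engage NLRP3, fell (-0.74 ± 0.15, adjusted p = 0.00134). P2rx4 and Zbp1 rose again in primed MSC against IUA, by 0.31 ± 0.09 and 0.68 ± 0.21.

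Downstream of the receptor, the kinase family member Irak3, a brake on IL-1 and Toll-like receptor signalling, rose in the model and again in both treated groups. It was at 60.8, 53.3 and 47.8 FPKM in primed MSC, 42.5, 57.1 and 50.4 in control MSC, 25.0, 25.1 and 25.2 in IUA, and 10.3, 8.46 and 10.7 in Sham. Irak3 rose in IUA against Sham (1.28 ± 0.13, adjusted p = 3.70e-05), in control MSC against IUA (0.95 ± 0.13, adjusted p = 0.0124) and in primed MSC against IUA (1.07 ± 0.13, adjusted p = 7.27e-04). It was the 1 pathway gene called in control MSC against IUA. Irak2, a kinase that carries the signal on, rose in primed MSC against IUA (1.01 ± 0.17, adjusted p = 0.00326) and was at -0.16 ± 0.17 in IUA against Sham. Nfkbiz, a nuclear cofactor of NF-kB induced by IL-1, rose in IUA against Sham (0.86 ± 0.17, adjusted p = 0.00120) and was at -0.03 ± 0.17 in primed MSC against IUA.

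**Figure D4:**
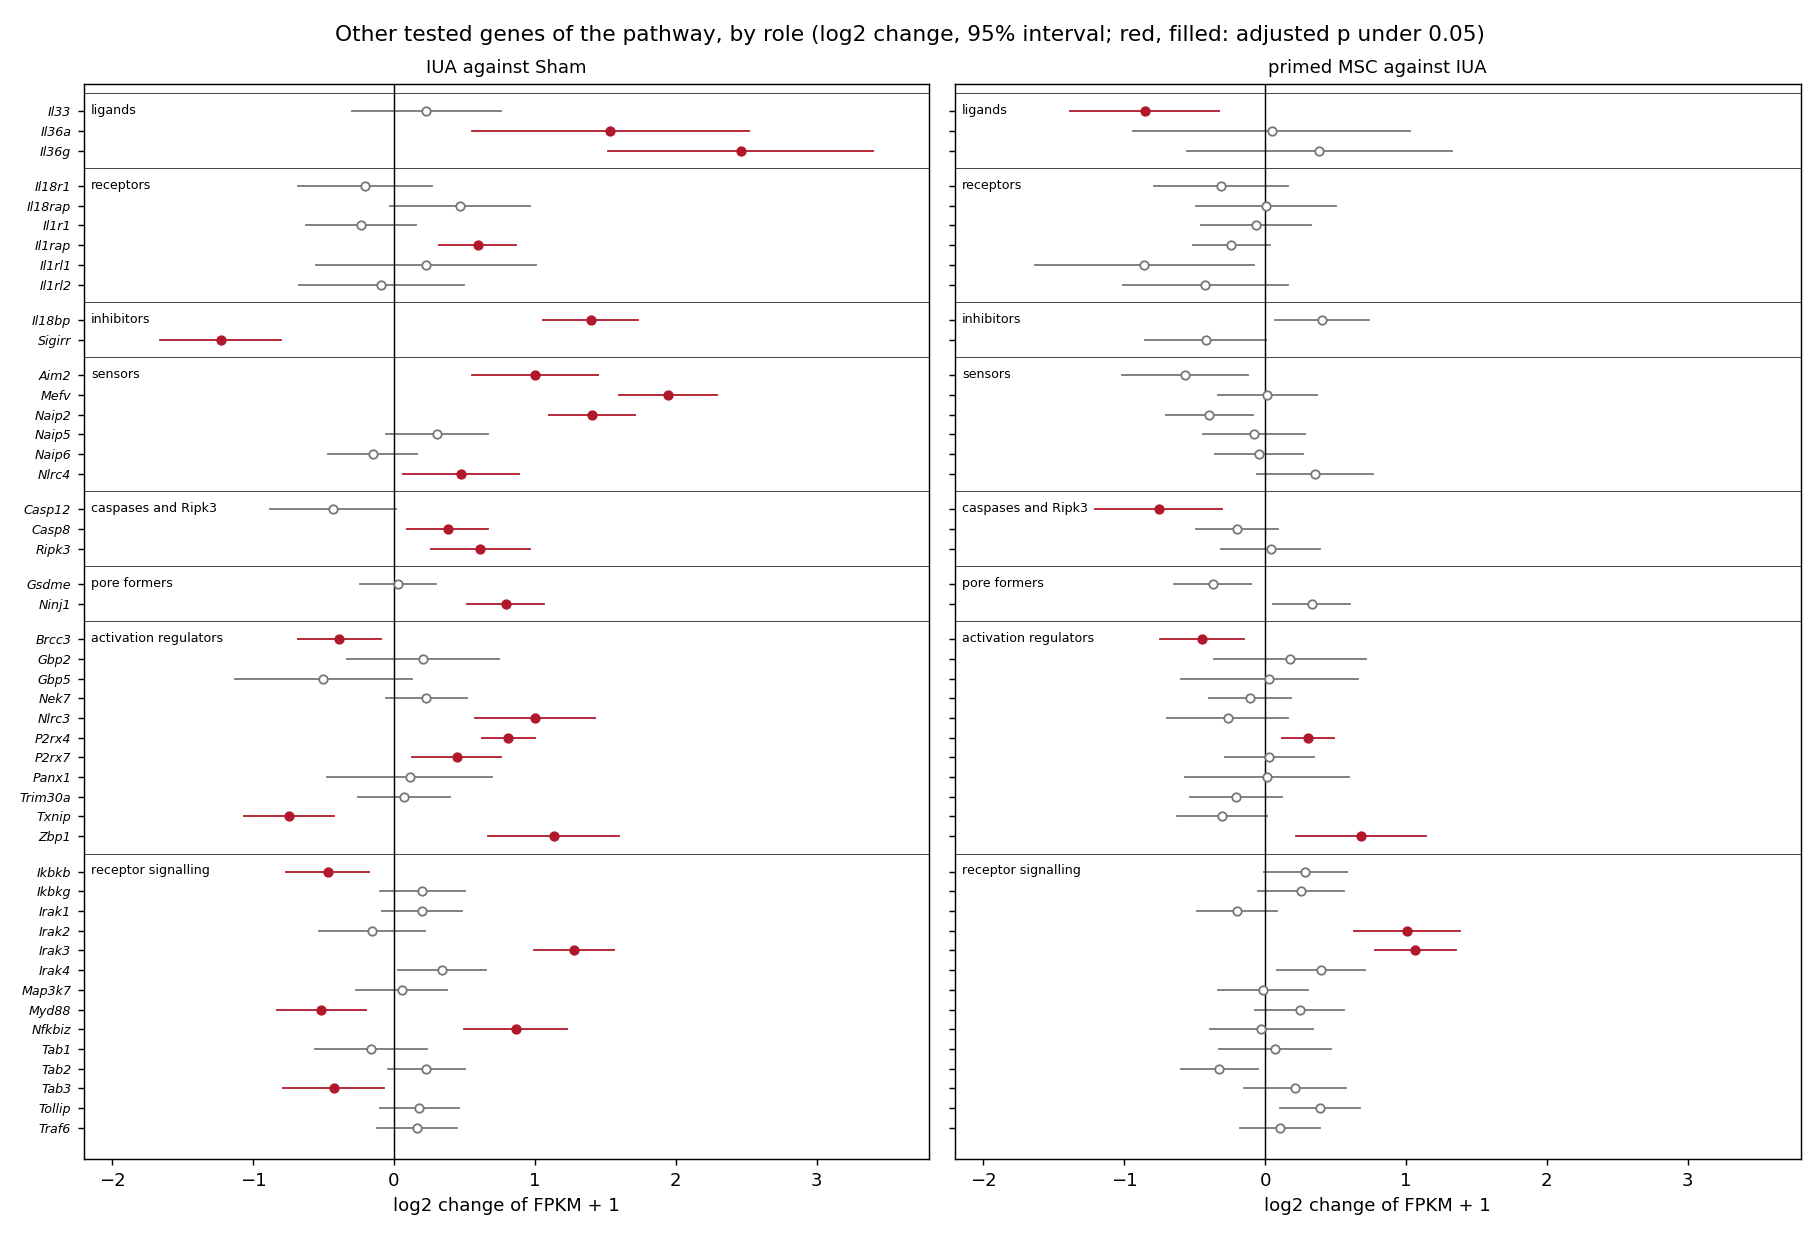
Log2 change of FPKM + 1 (x axis) of 47 further tested pathway genes (rows, grouped by role) in IUA against Sham and in primed MSC against IUA, with the 95 percent interval from limma; red filled points passed at an adjusted p under 0.05. In IUA against Sham 17 rose and 6 fell, and in primed MSC against IUA 4 rose and 3 fell.

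The search for similar profiles left out the 10 genes themselves, Xist, and predicted (Gm), Rik and clone symbols. Symbols starting with Igh, Igk, Tra or Trb were also left out. For the remaining tested genes, log2 levels were centred on their mean over the 12 libraries. The genes with the smallest root mean square difference are named, as a description only. For Il1b these were Cd274, which encodes the checkpoint ligand PD-L1, at 0.19 and Ptgs2, the inducible cyclooxygenase, at 0.23. For Il1a they were the chemokine gene Ccl6 at 0.27 and Fam71f2 at 0.31. For Il1rn they were Zc3h12d and Zfp991, both at 0.16, and for Il1r2 the cystine transporter gene Slc7a11 at 0.22 and Treml4 at 0.25. Among the 10 genes themselves the closest pair was Il18 and Il1rn, at 0.28, followed by Casp1 and Casp4 at 0.29.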

How the data were processed

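RNA sequencing libraries of F4/80-positive endometrial cells from 12 mouse samples were analysed as deposited. The authors deposited 1 FPKM value per gene and library, rounded to 2 decimals. Per the submitters' processing notes the build was mm10, and fastp, HISAT2, RSEM, StringTie and DESeq2 were used, with no versions, roles or filters given. With values rounded to 0.01, reads per gene were not recovered, the depth is unknown, and no count test was used. No pair of libraries was identical.

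A linear model on log2(FPKM + 1), a scale that understates changes of low genes, was fitted with limma 3.58.1 in R 4.3.3. The filter kept 11604 genes that reached 1 FPKM in 3 or more libraries, all 10 genes among them, and the model had 1 mean per group, all 12 libraries in 1 fit and an empirical Bayes variance trend. Tests were two-sided, and "rose" and "fell" mean p under 0.05 after Benjamini-Hochberg adjustment across the 11604 genes. Pairwise exact permutation tests of 3 against 3 cannot go below 0.1 and were not used. The fit was tested on simulated data. Members, gene lists and tests were chosen with earlier results of these data known. The text names all 10 genes, up to 3 further genes per role list by smallest F test p, the 2 nearest profiles of Il1a, Il1b, Il1rn and Il1r2, and fixed cell markers. Ltf, Ngp, Camp, Csf3r, Lcn2, Chil3, F10, Vcan and Thbs1, from the marker lists, were named after their values were seen. Coordinates are from GENCODE vM21 (mm10) and promoters from RefSeq (GRCm38.p6). Alternatives covered pseudocounts, filters, scalings, G and C correction, an epithelial covariate, a replicate block and leaving out each library.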

Additional observations from a re-analysis of the deposited data

How the results depend on the processing

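Of 720 values of the 10 genes (60 changes under 12 alternatives other than leaving out a library), 679 kept their direction and their side of the threshold, 22 lost and 10 gained a call, and 9 changed sign. None of those 9 was called before or after, and all were small. TPM scaling gave -0.020 for Casp4 in IUA against Sham and -0.033 for Casp1 in control MSC against Sham. Median-ratio scaling gave -0.023 for Il1rn in control MSC against IUA. G and C correction gave -0.11 for Casp4 in IUA against Sham, 0.032 for Il1b in control MSC against IUA, 0.017 for Casp1 in primed MSC against IUA and -0.018 for Casp1 in control MSC against Sham. The covariate gave -0.028 for Il1rn and -0.043 for Il1r2 in control MSC against IUA. With 1 library left out, some uncalled changes also crossed 0. In IUA against Sham Casp4 ran from -0.067 to 0.18. In control MSC against IUA Il1b ran from -0.26 to 0.11, Il1rn from -0.18 to 0.13, Il1r2 from -0.19 to 0.32 and Nlrp3 from -0.25 to 0.41. In primed MSC against control MSC Il1a ran from -0.38 to 0.020, Il1r2 from -0.14 to 0.38, Pycard from -0.29 to 0.10 and Casp1 from -0.088 to 0.12. Casp1 ran from -0.034 to 0.14 in control MSC against Sham and from -0.021 to 0.18 in primed MSC against Sham. The further pathway genes were not refitted under the alternatives. Among alternatives other than leaving out a library, the number of the 10 genes called moved by more than 1.5 times under 3 settings. With the epithelial covariate it was 4 in IUA against Sham, 4 in control MSC against Sham and 4 in primed MSC against Sham, beside 7, 7 and 9, and 5 by the F test, beside 9. In primed MSC against Sham the calls of Il18, Il1rn, Il1r2, Nlrp3 and Casp4 were lost with this covariate. The epithelial score was higher in every Sham library than in any other. In primed MSC against IUA the number called was 1 after G and C correction and 1 with a log2 change of at least 1, beside 3. It was also 1 without IUA replicate 3 and without primed MSC replicate 2 or 3. Leaving out 1 library at a time gave 7 to 8 in IUA against Sham, 7 to 9 in control MSC against Sham, 8 to 9 in primed MSC against Sham, 1 to 4 in primed MSC against IUA, 0 in control MSC against IUA and in primed against control MSC, and 8 to 9 by the F test. Replicate numbers are shared between groups, and no pairing of libraries by number was detected, which 3 libraries a group cannot exclude. Correlations of same-numbered libraries ran from -0.293 to 0.288, beside -0.326 to 0.269 for pairs of unlike number. With a replicate block the counts for the 10 genes stayed within 1.5 times. Counts over all genes were less steady. In control MSC against IUA 99 genes were called, beside 43 with the block, 29 without a filter, 42 under median-ratio scaling, 16 with the compared groups alone, 151 with the covariate, 39 at a log2 change of at least 1, and 5 (without control MSC replicate 2) to 329 (without IUA replicate 1). In primed MSC against control MSC 13 were called, beside 0 with the block or without a filter, 4 or 5 with smaller pseudocounts, 5 with a filter at 5 FPKM, 20 with the covariate, 207 with the compared groups alone, and 0 to 233 (without IUA replicate 3). In primed MSC against IUA 2219 were called, beside 1343 alone, 494 at a log2 change of at least 1, and 1156 to 2557 with 1 library left out. With the covariate 740 were called in IUA against Sham, 734 in control MSC against Sham and 1396 in primed MSC against Sham, beside 6517, 6592 and 6903, and 2421 by the F test, beside 7771. At a log2 change of at least 1 these 3 comparisons with Sham called 2159, 2492 and 2692. The causes were not tested. Depth is unknown and FPKM keeps no counting error.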
